A study of Mus musculus with 7 samples.

Results

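Small nucleolar RNAs (snoRNAs) and small Cajal body RNAs (scaRNAs) were described in small RNA libraries from the mouse brain ventricles. The members were the rows of the deposited count tables whose names start with Snor or Scarna. There were 116 such rows among 66568 named rows: 77 C/D box rows (Snord), 37 H/ACA box rows (Snora) and 2 Scarna rows. The libraries came from lateral ventricles with choroid plexus of adult C57BL/6J mice, with 4 libraries of TAp73 knockouts and 3 of wild types. The protein TAp73 is the p73 transcription factor with its transactivation domain, and the series title concerns its role in forming multiciliated cells of the brain. The labels give neither the knocked-out exon nor any further allele, treatment, sex or exact age. They also do not state how many animals went into a library.

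C/D box snoRNAs guide ribose methylation and H/ACA box snoRNAs guide pseudouridylation, mainly of ribosomal RNA, by base pairing with the target in the nucleolus. A few C/D and H/ACA members, such as U8 and U17, act in the cleavage of the ribosomal RNA precursor instead. ScaRNAs guide the same modifications of spliceosomal RNAs in Cajal bodies. In mammals most of these RNAs are cut out of introns of host genes, many of which encode ribosomal proteins or nucleolar proteins.

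The annotated RNAs that the results turn on are shown as the sequences of their GENCODE M21 transcripts (build GRCm38, the same assembly as mm10), written 5′ to 3′ in DNA letters. Capitals mark the box C hexamer TGATGA where it lay in the first 20 bases and the box D tetramer CTGA where it lay in the last 20 bases, searched on the annotated strand only. Snord64 and Snord107 lie beside each other in the imprinted Prader-Willi region, at chr7:59978808-59978874 and chr7:59980876-59980945 on the minus strand, and are shown because one had the highest level of all members and the other a low one.
Snord64: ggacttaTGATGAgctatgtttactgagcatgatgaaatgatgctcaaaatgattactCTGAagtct
Snord107: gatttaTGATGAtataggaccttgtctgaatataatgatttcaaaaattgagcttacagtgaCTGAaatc

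Snord99 (chr4:132310691-132310764, plus strand) and Snora44 (chr4:132309941-132310069, plus strand) lie in the same noncoding host gene, Snhg12, and are shown because their log2 fold changes between the genotypes had opposite signs.
Snord99: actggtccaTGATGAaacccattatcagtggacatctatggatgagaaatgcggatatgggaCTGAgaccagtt
Snora44: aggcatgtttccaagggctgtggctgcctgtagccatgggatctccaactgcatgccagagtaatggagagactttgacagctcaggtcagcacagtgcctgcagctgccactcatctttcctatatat

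Snord110 (chr2:130275506-130275573, plus strand, in Nop56), Snord68 (chr8:123103038-123103123, plus strand, in Rpl13) and Snord82 (chr1:86356261-86356330, minus strand, in Ncl) are shown because they were high in a single wild type library. No CTGA lay in the last 20 bases of Snord68.
Snord110: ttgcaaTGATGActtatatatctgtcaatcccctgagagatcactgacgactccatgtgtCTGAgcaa
Snord68: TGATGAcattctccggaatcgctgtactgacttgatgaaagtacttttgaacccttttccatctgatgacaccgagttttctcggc
Snord82: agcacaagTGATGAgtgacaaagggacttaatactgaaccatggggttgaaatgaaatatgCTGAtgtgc

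Snord45c (chr3:153912125-153912204, minus strand, in Rabggtb) and Snord118 (U8, chr11:69073427-69073561, plus strand, no annotated host) had high read levels among the members. So did Scarna9 (chr9:15326264-15326333, minus strand, in an intron of Cep295). They are shown for their 3 kinds: a methylation guide, a precursor cleavage RNA and a scaRNA. No TGATGA lay in the first 20 bases of Snord118.
Snord45c: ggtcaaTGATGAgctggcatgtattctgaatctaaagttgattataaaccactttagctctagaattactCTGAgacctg
Snord118: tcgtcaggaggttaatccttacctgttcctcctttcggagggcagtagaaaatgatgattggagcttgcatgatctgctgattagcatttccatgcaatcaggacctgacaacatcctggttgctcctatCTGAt
Scarna9: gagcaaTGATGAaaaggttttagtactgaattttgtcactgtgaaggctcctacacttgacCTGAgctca

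Of the 116 rows, 106 matched 1 annotated gene by symbol, and the Snord and Snora labels were checked against the box letters of those genes. TGATGA was in the first 20 bases of 44 of 70 Snord genes (62.9%), CTGA in the last 20 bases of 68 (97.1%), and both in 42. The triplet ACA stood 3 bases before the end of 28 of 34 Snora genes (82.4%) and of 0 Snord genes. Snora44 was among the Snora genes without it at that place. Over all 1558 annotated snoRNA and scaRNA genes, most of which carry predicted names outside the rule, 21.3% held the first, 34.8% the second, 20.2% both, and 19.3% held ACA at that place. Both Scarna genes held TGATGA and CTGA in those windows. The annotated Snord genes had a median length of 78.5 bases, from 64 to 238, and the Snora genes 132 bases, from 121 to 205. The tables hold reads per row and no read lengths, so whether the reads were fragments or whole snoRNAs could not be checked.

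The depth, as assigned reads, ranged from 969106 in knockout replicate 3 to 9343921 in knockout replicate 1, and from 2238917 to 3692879 in wild types. Mature mouse miRNAs held 98.80% ± 0.18 of the knockout reads (mean ± SD over 4 libraries) and 98.82% ± 0.09 of the wild type reads (mean ± SD over 3 libraries). The RNA of this mixed tissue carried reads of choroid plexus miRNA markers (3 of 3 in every library), and their summed level overlapped between the groups, from 1986 to 7347 counts per 1000000 assigned reads (CPM) in knockouts and from 1991 to 11643 in wild types. Summed neuronal markers (2 of 2 in every library) were 25092 to 27984 CPM in knockouts and 13924 to 24619 in wild types, without overlap. Summed multiciliated cell markers, the miR-34 and miR-449 arms (4 of 4 in every library), were 374 to 739 CPM in knockouts and 1238 to 3534 in wild types, without overlap. The arms in this sum moved in opposite directions: edgeR log2 fold changes were -2.39 for miR-34b-5p and -2.39 for miR-34c-5p, and 2.67 for miR-449a-5p and 3.12 for miR-449c-5p. Sums of erythrocyte (3 of 3), leukocyte and microglia (3 of 3), oligodendrocyte (2 of 3) and endothelial markers (1 of 2 with reads in every library) overlapped. Their part in the results below was not tested, and in bulk tissue fewer cells of a type and less RNA per cell cannot be told apart.

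The rows named as snoRNAs and scaRNAs together were a small share of the small RNA, and the genotypes overlapped in it. The 116 rows summed to 1158, 965, 972 and 1042 CPM in knockout replicates 1 to 4 and to 1301, 1038 and 1366 CPM in wild type replicates 1 to 3. Wild type replicate 2 lay within the knockout range, so the groups overlapped. In percent of all reads this was 0.103% ± 0.0090 in knockouts and 0.123% ± 0.017 in wild types. The difference, knockout minus wild type, was -0.25 ± 0.14 on the log2 scale (SE). Sums here are scaled by library totals alone. With that scaling the median log2 fold change of all rows tested was -0.11, against -0.02 with the scaling used for the tests. Rows of other small RNA genes summed to 1207 ± 69.2 CPM in knockouts and 1309 ± 103 in wild types, and piRNA rows to 9322 ± 1780 and 8803 ± 806. The other small RNA genes may include snoRNAs with predicted names, which fall outside the rule and the members' sum.

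C/D box RNAs made up nearly all of these reads. Snord rows summed to 1078, 902, 879 and 977 CPM in knockouts and 1245, 982 and 1287 CPM in wild types, with overlap and a log2 difference of -0.28 ± 0.14. Snora rows summed to 42.6, 36.8, 66.0 and 39.7 CPM in knockouts and 31.2, 30.4 and 45.0 CPM in wild types, again with overlap and a log2 difference of 0.37 ± 0.26. The highest Snora sum was that of knockout replicate 3, the shallowest library. The Scarna rows summed to 37.2, 26.5, 26.8 and 25.5 CPM in knockouts and 25.3, 25.5 and 33.6 CPM in wild types, and their log2 difference was 0.04 ± 0.19. In the plot of class sums, C/D rows lie more than an order of magnitude above the other classes in every library.

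**Figure D1:**
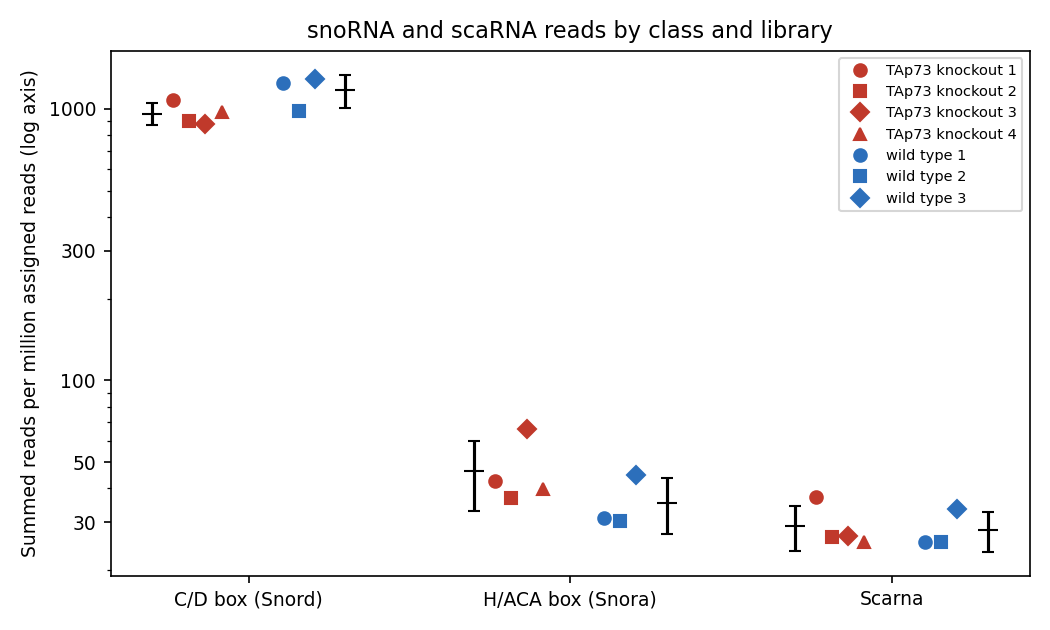
Summed CPM (log axis) of the Snord, Snora and Scarna rows in each library, with knockouts in red and wild types in blue; black marks give the group mean ± SD. The 2 genotypes overlap in every class, and knockout replicate 3 has the highest Snora sum, 66.0 CPM.

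The groups did not overlap in the balance between the classes, though counting intervals of the nearest libraries did. There were 3.95, 4.08, 7.51 and 4.07 Snora reads per 100 Snord reads in knockouts and 2.50, 3.09 and 3.49 in wild types. All 4 knockouts lay above all 3 wild types, at 4.90 ± 1.74 against 3.03 ± 0.50, a log2 difference of 0.65 ± 0.26. Knockout replicate 3 was far above the rest with 64 Snora reads of 942 (6.79%, exact 95% binomial interval 5.27% to 8.59%). Without it the log2 difference was 0.43. In wild type replicate 3 the Snora share of the members' reads was 3.29% (2.82% to 3.82%). That interval overlapped those of knockout replicate 1 (3.33% to 4.05%), replicate 2 (3.39% to 4.27%) and replicate 4 (3.25% to 4.45%). Without Snora44 the groups also did not overlap, by a narrow gap (1.198 to 2.23 against 1.06 to 1.137). That gap rests on few reads and was given no interval: in wild type replicate 2, 43 of the 68 Snora reads were Snora44. Nor did the groups overlap without the 4 Snord rows that were high in wild type replicate 1 (4.31 to 8.45 against 3.45 to 3.93). Without Snora44 and those 4 rows together the groups overlapped, at 1.32 to 2.51 against 1.21 to 1.52, and the log2 difference was 0.35 ± 0.22. A single ratio chosen among several sums was not given a p-value.

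Of the 116 rows, 100 had a read in at least 1 library and 61 had one in every library. The share with reads in every library differed by class: 55 of 77 Snord rows, 5 of 37 Snora rows and 1 of 2 Scarna rows. The other 16 rows (6 Snord, 10 Snora) had 0 reads in all 7 libraries. A count of 0 over the pooled 30673891 reads allows up to 3 reads, or 0.0978 CPM. Among these 16 were Snord14d, a copy of U14 in Hspa8, and Snora61, the third annotated snoRNA of Snhg12. The number of rows with a read ranged from 70 in knockout replicate 3, the shallowest library, to 93 in knockout replicate 2. At the depth of 969106 reads the expected number was 68.8 to 70.8 in knockouts and 68.4 to 73.5 in wild types.

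A few C/D box RNAs held most of the reads. The top row took 12.3% ± 2.29 of the members' reads (SD over 7 libraries), the top 5 rows 37.6% ± 2.0, the top 10 57.4% ± 2.62 and the top 20 78.6% ± 1.27. All of the top 10 were Snord rows. The highest Snora row, Snora44, and the highest Scarna row, Scarna9, followed with means of 27.7 and 28.4 CPM over the 7 libraries. Snora44 alone held 2.54% ± 1.08 of the members' reads, and all Snora rows together held 3.82% ± 1.41.

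**Figure D2:**
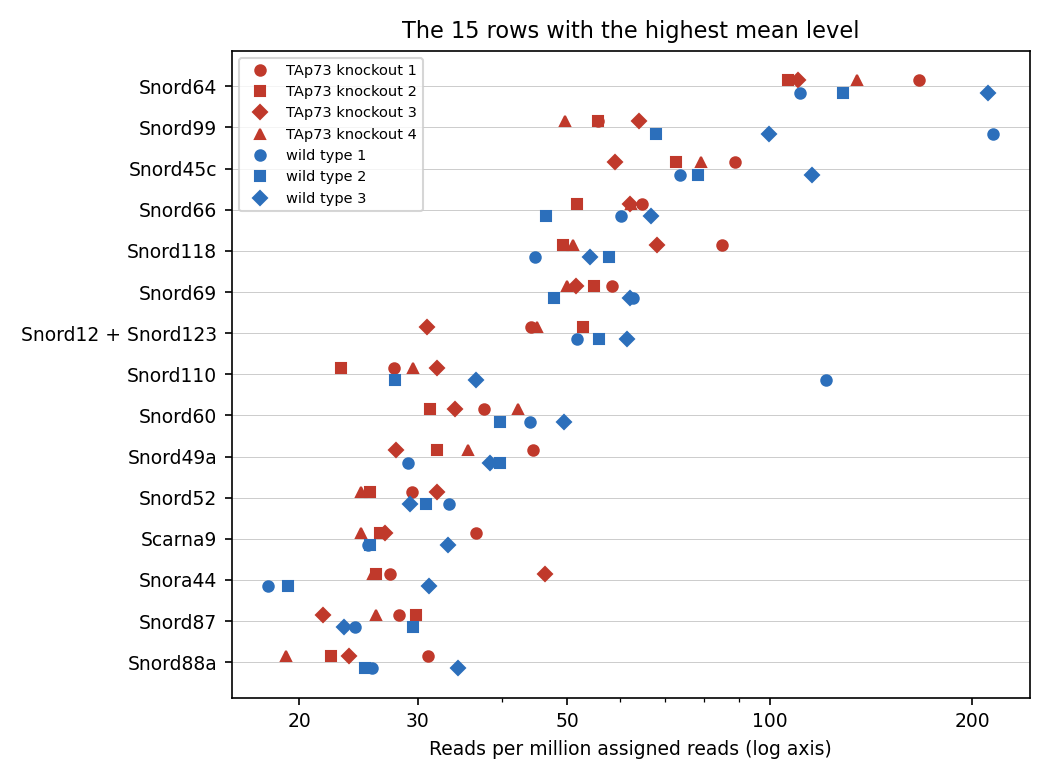
CPM (log axis) in each library for the 15 members with the highest mean, with knockouts in red above each line and wild types in blue below it. Snord64 leads in mean level, and wild type replicate 1 stands apart for Snord99 (215.2 CPM) and Snord110 (121.4 CPM).

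Snord64, the member with the highest mean level, belongs to the imprinted snoRNA region whose paternal copy is lost in Prader-Willi syndrome. Its level was 166.6, 106.4, 110.4 and 134.7 CPM in knockouts and 111.1, 128.6 and 211.5 CPM in wild types. Knockouts and wild types overlapped, and the highest value was wild type replicate 3. The edgeR log2 fold change was -0.11 ± 0.23 (SE; adjusted p = 0.86), and it was 0.18 without wild type replicate 3.

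Its neighbour Snord107 had 3.64, 2.19, 2.06 and 3.82 CPM in knockouts and 1.47, 1.34 and 5.42 CPM in wild types. Per 100 bases of annotated RNA the mean level of Snord64 was 206.7 CPM and that of Snord107 4.07 CPM, 50.8-fold lower. A joined row of 31 names, which include Snord11, Snord116l1 and Snord116l2, had 3.64, 4.89, 2.06 and 4.33 CPM in knockouts and 4.40, 5.36 and 7.58 CPM in wild types (log2 fold change -0.44 ± 0.32, edgeR adjusted p = 0.66). Its other names are predicted genes. Snord11 lies on chromosome 1 in Nop58 and the Snord116 names on chromosome 7 in Snhg14, so reads of that row cannot be assigned to either locus. The Prader-Willi list, these 3 rows with the joined row included, took 13.1% ± 1.59 of the members' reads in knockouts and 12.8% ± 3.73 in wild types. Snord64 alone took 12.3% ± 2.29 (SD over 7 libraries). That list also names Snord115, but no member row carries that name, so the share is not that of the whole region. The joined row, which may hold Snord11 reads, held 0.408% ± 0.126 of the members' reads (SD over 7 libraries).

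Snord45c, a methylation guide from the geranylgeranyl transferase subunit gene Rabggtb, had 88.9, 72.7, 58.8 and 79.0 CPM in knockouts and 73.7, 78.2 and 115.6 CPM in wild types. Snord66, from the translation initiation factor gene Eif4g1, had 64.6, 51.7, 61.9 and 62.2 CPM in knockouts and 60.1, 46.5 and 66.6 CPM in wild types. Snord69, from the nucleolar GTPase gene Gnl3, had 58.3, 54.9, 51.6 and 49.9 CPM in knockouts and 62.7, 47.8 and 62.0 CPM in wild types. All 3 overlapped between the genotypes, with edgeR log2 fold changes of -0.15 ± 0.21, 0.14 ± 0.19 and -0.01 ± 0.18 (adjusted p = 0.81, 0.80 and 0.98). Per 100 bases, Snord64, Snord99, Snord45c, Snord66 and Snord69 were the 5 highest members, with mean levels of 206.7, 117.3, 101.2, 78.8 and 69.2 CPM.

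Other rows of the top 10 also overlapped. The joined row of Snord12 and Snord123 had 43.2 ± 9.04 CPM in knockouts and 56.3 ± 4.90 in wild types (log2 fold change -0.27 ± 0.20). Their sequences differ and they lie on chromosomes 2 and 15, but the name Snord12 is the beginning of Snord123, so the row is not assigned to either. Snord60 had 36.3 ± 4.76 CPM against 44.4 ± 4.92 (-0.20 ± 0.19) and Snord49a had 35.0 ± 7.05 against 35.7 ± 5.89 (0.08 ± 0.21). The direction for Snord49a turned with scaling by library totals alone, to -0.01.

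No single member passed the test between the genotypes. Of the 116 rows, 49 passed the filter on low counts: 47 Snord rows, Snora44 and Scarna9. None was called by edgeR's quasi-likelihood test at an adjusted p under 0.05, against 0.708% of all 706 rows tested (5 rows: 3 miR-34 arms lower and 2 miR-449 arms higher in knockouts; 0.425% and 0.283%). DESeq2 also called 0 members, against 1.42% of the 703 rows to which it gave an adjusted p (0.569% higher, 0.853% lower). An unadjusted edgeR p under 0.05 was found for 3 members and for 9.92% of all rows. The 3 members were lower in knockouts (Snord99, Snord68 and Snord110), where 4.82% of all rows were, and 0 were higher, where 5.1% were. Log2 fold changes were negative for 30 of 49 members (61.2%), against 52.4% of all rows tested, with a median of -0.11 against -0.02. They ranged from -1.50 to 0.66. Other small RNA genes, 51 of which were tested and which may include snoRNAs with predicted names, had a median of -0.11 as well. With scaling by library totals alone 69.4% of members were negative (median of all rows -0.11), with scaling on the members themselves 55.1% (0.05), and with no filter on low counts 47.0% (0.40).

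**Figure D3:**
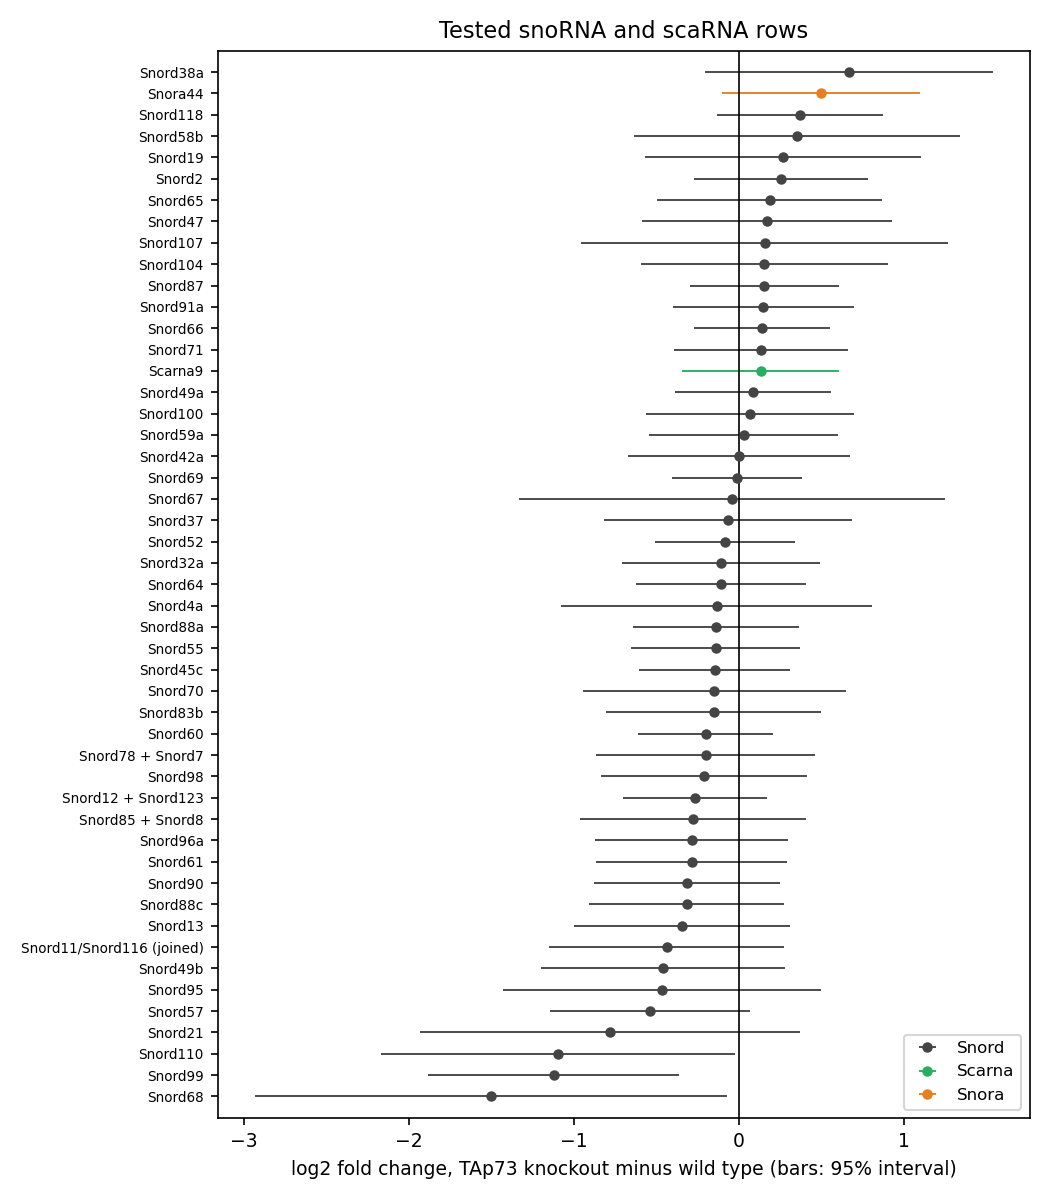
Log2 fold change, knockout minus wild type, with its 95% interval from edgeR for the 49 tested members, ordered by value. Most intervals span 0; those of Snord68, Snord99 and Snord110, the 3 lowest, do not, though no adjusted p is under 0.05.

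Snord99, the member with the second highest mean level, was the one nearest to the threshold. Its level was 55.7, 55.6, 64.0 and 49.7 CPM in knockouts and 215.2, 67.9 and 99.7 CPM in wild types. All 4 knockouts lay below all 3 wild types, and wild type replicate 1 was 2.16-fold above the next highest library. The edgeR log2 fold change was -1.12 ± 0.34 (2.18-fold lower in knockouts, 95% interval 1.29 to 3.69; adjusted p = 0.29). The adjusted p was 0.078 in DESeq2, and edgeR gave 0.0019 with no filter on low counts and 0.051 without wild type replicate 2. Without wild type replicate 1 the log2 fold change was -0.51, with an adjusted p of 0.52.

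Snora44, an H/ACA RNA from the same host gene Snhg12, had 27.3, 26.0, 46.4 and 25.7 CPM in knockouts and 18.0, 19.2 and 31.1 CPM in wild types. Here the groups overlapped only through wild type replicate 3. The log2 fold change was 0.50 ± 0.27 (edgeR adjusted p = 0.56). There were 2.04, 2.14, 1.38 and 1.93 Snord99 reads per Snora44 read in knockouts and 12.0, 3.53 and 3.20 in wild types. All knockouts lay below all wild types in this ratio, with a log2 difference of -1.48 ± 0.63, or -0.87 without wild type replicate 1. The ratio was formed after both values had been seen and was not given a p-value. Wild type replicate 1 held both the highest Snord99 level and the lowest Snora44 level of the 7 libraries.

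**Figure D4:**
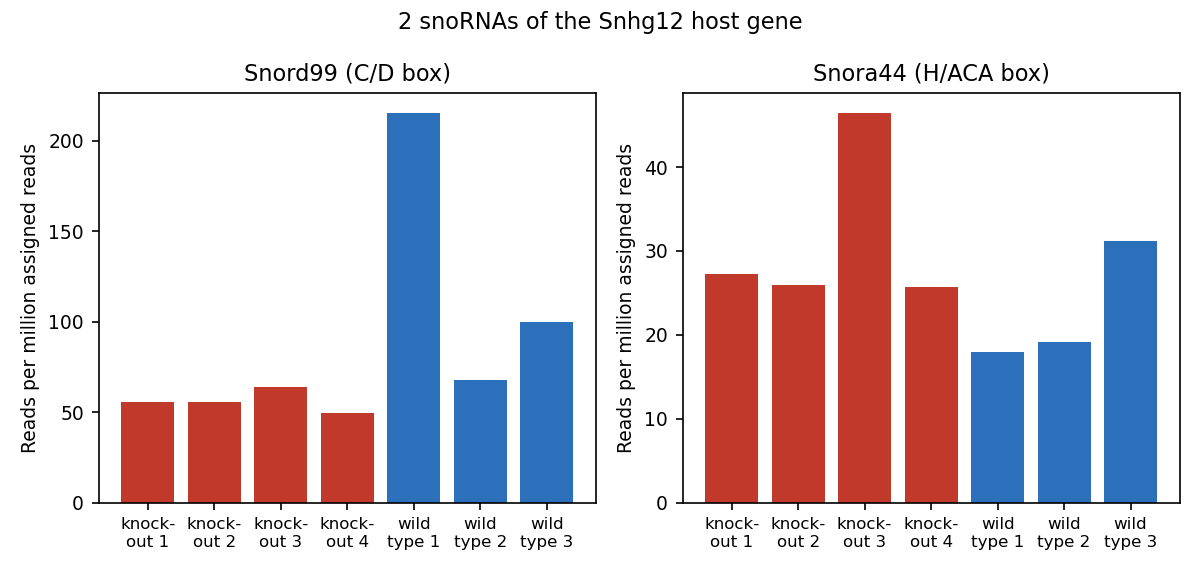
CPM of the 2 snoRNAs of the Snhg12 host gene in each library, with knockouts in red and wild types in blue; each bar is 1 library and the vertical scales differ. Snord99 is lower in every knockout (49.7 to 64.0 CPM) than in any wild type (67.9 to 215.2 CPM), while Snora44 is 25.7 to 46.4 CPM in knockouts and 18.0 to 31.1 CPM in wild types.

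Snord110 and Snord68 were low in knockouts relative to a single wild type library. Snord110, a methylation guide in an intron of Nop56, which encodes a core protein of C/D box particles, had 27.6, 23.0, 31.99 and 29.5 CPM in knockouts and 121.4, 27.7 and 36.6 CPM in wild types. Snord68, from the ribosomal protein gene Rpl13, had 4.71, 3.60, 1.03 and 5.09 CPM in knockouts and 26.8, 4.02 and 5.69 CPM in wild types. In both, wild type replicate 1 was high and the other wild types lay near or within the knockout range. The edgeR log2 fold changes were -1.10 ± 0.47 and -1.50 ± 0.64, each with an adjusted p of 0.49. With no filter on low counts edgeR called both, at adjusted p-values of 0.031 and 0.045. Without wild type replicate 1 they were -0.14 and -0.19.

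These were part of a group of 4 C/D rows in wild type replicate 1. Among 65 members with a mean of at least 5 reads, 4 were over 2 times higher in that library than in every other one: Snord99, Snord110 (3.32-fold over the next highest), Snord68 (4.71-fold) and Snord82 (4.38-fold). Snord82, from the nucleolin gene Ncl, had 11.7 CPM there and 1.03 to 2.68 CPM in the other 6 libraries. Of 840 rows of all kinds with such a mean, 15 were over 2 times higher in that library. In wild type replicate 3 there were also 15 such rows, none of them a member, and in knockout replicate 3 there were 10, of which 2 were members, Snord58b (16 reads) and Snora31 (5 reads). Without the 4 rows the members summed to 945 ± 90.4 CPM in knockouts and 1028 ± 168.1 in wild types, and the log2 difference was -0.11 ± 0.15.

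Snord57, also from Nop56, was lower in every knockout library, though it did not pass the test. Its level was 6.31, 7.20, 3.10 and 5.86 CPM in knockouts and 9.53, 9.83 and 8.94 CPM in wild types. All knockouts lay below all wild types, and the wild types were close together. The log2 fold change was -0.54 ± 0.28 (1.45-fold lower, 95% interval from 0.955 to 2.21; edgeR adjusted p = 0.53). It ran from -0.67 to -0.44 when each library was left out in turn. Among the 49 tested members only Snord99, Snord57 and Snord96a (6.12%) were lower in knockouts without overlap, against 7.08% of all rows tested. The members' share was thus no larger than that of all rows. Snord96a, from Rack1, had 8.03, 8.62, 4.13 and 8.15 CPM in knockouts and 10.6, 9.38 and 10.02 CPM in wild types. No tested member was higher in knockouts without overlap, where 2.97% of all rows were.

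The members with the 5 smallest p-values among positive fold changes, which include Snora44 above and Snord118 below, all overlapped between the groups. Snord38a had 11.0, 7.07, 12.4 and 13.2 CPM in knockouts and 6.97, 2.68 and 11.1 CPM in wild types. Both groups spanned a wide range and overlapped, at a log2 fold change of 0.66 ± 0.40 (edgeR adjusted p = 0.63). Snord58b had 8.36 ± 5.61 CPM against 5.86 ± 1.78 (0.35 ± 0.45), with knockout replicate 3 highest at 16.5. Snord2, from Eif4a2, had 10.8 ± 1.44 CPM against 9.46 ± 0.73 (0.26 ± 0.24). Snord21 was lower at 3.53, 1.54, 0 and 1.27 CPM in knockouts and 4.03, 4.02 and 3.52 CPM in wild types (-0.78 ± 0.52, edgeR adjusted p = 0.65). The value of 0 in knockout replicate 3 allows up to 3.10 CPM.

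In the list for ribosomal RNA precursor cleavage the highest row was Snord118 (U8), needed for maturation of the large-subunit ribosomal RNAs. The list also names U3 (Snord3), but no member row carries that name, so U8 was highest only among the rows present. Snord118 had 85.0, 49.4, 68.1 and 50.9 CPM in knockouts and 44.7, 57.6 and 54.2 CPM in wild types. The groups overlapped, and the 2 highest values were knockouts. The log2 fold change was 0.37 ± 0.23 (edgeR adjusted p = 0.63). Snord13 (U13), which was put on that list by name and whose part in cleavage was not tested here, had 3.99 ± 0.60 CPM against 5.55 ± 1.40 (-0.34 ± 0.30). Of the 9 rows of that list 2 were tested, 0 were called and the median was 0.01. Copies of U14 in Hspa8 and of U17 in Rcc1 had few reads: Snord14e had 13 reads over all libraries, Snord14c 1, and Snora73a and Snora73b 3 each.

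Other lists by host or target held few rows, and none of their tested members was called. The Gas5 list had 3 rows and 2 tested with a median log2 fold change of -0.02: Snord47 at 0.17 ± 0.35 and the joined row of Snord78 and Snord7 at -0.20 ± 0.30. Snord78 lies in Gas5, but Snord7 lies on chromosome 11 in another host, so the reads of that row may come from outside Gas5. The Rpl13a list had 4 rows and 1 tested, Snord32a, at -0.11 ± 0.27. The 3 rows of the list of guides for U6 spliceosomal RNA were all tested, with a median of -0.20, among them the joined row of Snord85 and Snord8 at -0.28 ± 0.31. This and the Snord78 and Snord7 row, 2 of the 3, may hold reads of Snord85 and Snord78, which are not on that list, and were assigned to neither name. The 1 row of the Snhg1 list, Snord22 (U22), was not tested and had 1.04 ± 0.023 CPM in knockouts and 1.97 ± 1.25 in wild types. No row of the list of Dlk1-Dio3 imprinted C/D RNAs was among the members.

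Among scaRNAs, Scarna9, a guide for the U2 spliceosomal RNA, held nearly all reads. It had 36.6, 26.4, 26.8 and 24.7 CPM in knockouts and 25.3, 25.5 and 33.3 CPM in wild types. The groups overlapped at a log2 fold change of 0.13 ± 0.22 (edgeR adjusted p = 0.83), and without knockout replicate 1, the highest library, it was -0.05. Scarna10 had a mean of 0.258 CPM and was not tested. The Cajal body list consists of these 2 rows. After Snora44, the next H/ACA rows were Snora31 and Snora78, with means of 2.35 and 1.71 CPM, and they were not tested.

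Rows of the same host gene differed in mean level per length by 1.46-fold to 50.8-fold among the pairs for which a fold is given here. Of the 106 rows with 1 annotated gene, 101 lay in a host gene on the same strand, 48 overlapping none of its exons and 53 overlapping an exon of at least 1 transcript. There were 75 host genes, and 81 of the rows had a protein-coding host. By share of the members' reads, hosts of proteins other than ribosomal ones took 52.3% ± 2.62 (48 rows; SD over 7 libraries), noncoding hosts 24.8% ± 3.31 (20 rows) and ribosomal protein genes with Rack1 11.0% ± 0.75 (33 rows). Snord64, with 12.3% ± 2.29 of the members' reads, and Snord107 were counted among the 48 rows, because their host Gm38393 is annotated as protein coding. The 52.3% therefore depends in part on that label. The 5 rows with no host, Snord118 among them, took 6.17% ± 1.43, and the 10 rows with a joined name or no single annotated gene took 5.68% ± 1.06. How reads of a host's exons were kept apart from those of its snoRNA is not given in the sources used here.

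Mean levels per 100 bases were compared within hosts. Read lengths are not known, so these folds are of reads and need not be those of whole snoRNAs. In Rabggtb, Snord45c had 101.2 CPM and Snord45b 3.47 CPM, 29.2-fold lower. In Rpl13a, the ribosomal protein gene that carries 4 C/D RNAs, Snord32a had 28.5 CPM, and Snord33, Snord34 and Snord35a were 11.5-fold, 19.2-fold and 26.5-fold lower. In Snhg12, Snora44 had 21.5 CPM, 5.47-fold below Snord99. Other hosts had smaller folds. In 2410002F23Rik, Snord88c was 1.46-fold below Snord88a, and in Rack1, Snord95 was 2.65-fold below Snord96a. In 2410006H16Rik, Snord65 and Snord49b were 3.45-fold and 3.47-fold below Snord49a. In Rpl23a, Snord4a and Snord42b were 3.37-fold and 5.21-fold below Snord42a. In Gnl3, Snord19 was 7.24-fold below Snord69, and in Nop56, Snord57 was 6.21-fold below Snord110. In the 3 hosts with reads for both classes (Snhg12, Rps12 and Ncl) the H/ACA row was the lower one. In Rps12, Snora33 had 2 reads over all libraries and Snord100 had 270. In Ncl, Snora75 had 1 read and Snord82 had 89, so only in Snhg12 did the H/ACA row have more than a few reads.

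**Figure D5:**
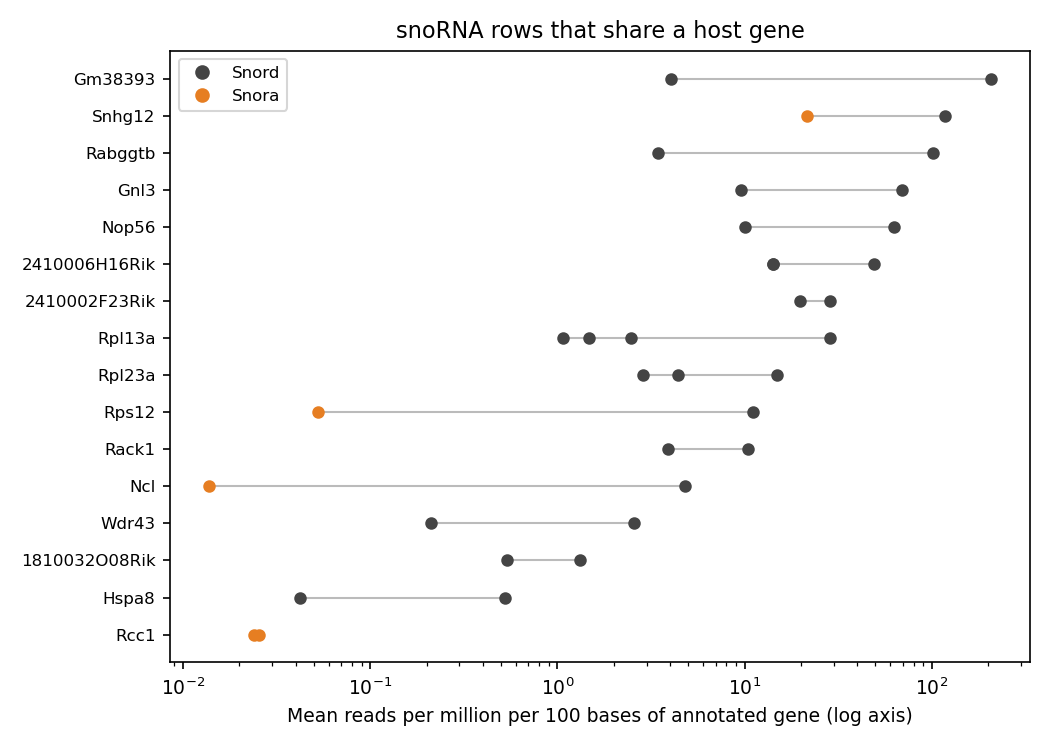
Mean CPM per 100 bases of annotated RNA (log axis, 7 libraries) for members that share a host gene; each line is a host and each point a row with reads, grey for Snord and orange for Snora. Rows with 0 reads are not drawn, and the widest gap among hosts with 2 well-covered Snord rows is that of Snord64 and Snord107 in Gm38393, 50.8-fold.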

How the data were processed

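Per the labels' protocols, RNA came from a phenol and chloroform isolation and went into Illumina TruSeq small RNA libraries. DESeq2, mm10 and bcl2fastq 2.17.1.14 are named, with no role, in the submitters' processing notes. Which aligner, counter, strand setting and annotation were used is not given in the sources used here. Each deposited value is a raw count, the number of reads on a named row. The 5 closing lines of each table, which name no RNA, hold 0 reads.

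Levels are reads per 1000000 assigned reads (CPM), with mean ± SD. The kit has no molecular identifiers, so the exact binomial intervals and the floors (3 reads) cover counting error only. The intervals of edgeR fold changes also include the spread between libraries. All rows were fitted with edgeR 4.0.16 in R 4.3.3: TMM scaling, filterByExpr by genotype (minimum count 10, total 15), robust quasi-likelihood test, Benjamini-Hochberg adjustment over all rows tested, called under 0.05. The method was tested on simulated data, drawn from a negative binomial model with the dispersions edgeR estimated here. These data held no outlying library, so that test does not cover rows high in a single library. Alternatives were DESeq2 1.42.0, limma-voom (limma 3.58.1), other scalings, filters and omitted libraries. Sums over rows were described with no test. Genes, hosts and sequences came from GENCODE M21 (GRCm38), matched by symbol, and sums were made with pandas 2.3.3.

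The members, the lists and the rule for naming rows were chosen with earlier results of these data known. Named were the 10 rows with the highest mean, the 3 highest Snora and Scarna rows, the 5 smallest p-values in each direction, and for each list its 2 smallest p-values and its highest row. Snord96a, Snord82, Snord14c, Snord14d, Snord14e, Snora73a, Snora73b, Snora33, Snora61 and the RNAs compared within hosts were named after their values were seen. Whether libraries stand for separate animals is not in the labels, so p-values measure the spread between libraries. Trp73 itself was not measured in these libraries, so the genotype labels were not checked against it. One host gene with its pair of snoRNAs is not reported here.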

Additional observations from a re-analysis of the deposited data

Results flagged for a closer look

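In the 4 knockouts, 48 values were searched for a library far from the other 3, and 6 stood out. Chance gives about 1 in 20, the 6 values are not independent, and groups of 3 are too small for this search, so wild types were not searched. Knockout replicate 3, the shallowest library, accounted for 4 of them. Its Snora44 level was 46.4 CPM, against 25.7 to 27.3 in the other knockouts. Its Snora share of the members' reads was 6.79%, against 3.68% to 3.81%, and its ratio was 7.51 Snora reads per 100 Snord reads, against 3.95 to 4.08. Its Snord13 level was low at 3.10 CPM, against 4.17 to 4.37, and that level is 3 reads. In knockout replicate 2, Snord2 was low at 8.62 CPM, against 11.3 to 11.7. In knockout replicate 1, the Scarna sum was high at 37.2 CPM, against 25.5 to 26.8.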

How the results depend on the processing

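No paired analysis was possible because the labels give the libraries no shared replicate numbers; the numbers used here only name them in accession order. The whole-table count of 5 called rows became 10 with DESeq2, 19 with no filter on low counts (5 higher, 14 lower) and 11 without knockout replicate 3 and wild type replicate 2 together. Leaving out each library gave 3 to 8: 3 when knockout replicate 1, wild type replicate 1 or wild type replicate 3 was left out, and 8 for wild type replicate 2. The members' count of 0 became 3 with no filter, which tested 100 members, and was 0 in all 7 single omissions. The log2 difference of the Scarna sum went from 0.04 to 0.31 in the 4 libraries with consecutive title numbers, and lay between -0.086 and 0.18 over single omissions. Single omissions gave -0.37 to -0.17 for the sum of all members, -0.40 to -0.21 for Snord, 0.18 to 0.55 for Snora and 0.43 to 0.76 for the Snora to Snord ratio. Of 24 named rows tested, 14 kept their direction in every alternative and 10 did not. In the 4 consecutive libraries the log2 fold change was 0.30 for Snord64, 0.21 for Snord45c, 0.15 for Snord69, -0.13 for Snord58b, 0.026 for the Snord78 and Snord7 row, and 0.071 for Snord32a. Snord69 was 0.0070 with limma-voom, 0.054 with scaling on the members and 0.050 with no filter, and Snord49a was -0.0098 by library totals. Without knockout replicate 3 and wild type replicate 2 together Snord47 was -0.054 and Snord32a 0.076. Over single omissions the log2 fold change ran from -0.30 to 0.18 for Snord64, -0.28 to 0.048 for Snord45c, -0.011 to 0.22 for Snord66, -0.15 to 0.052 for Snord69, -0.084 to 0.16 for Snord49a, -0.050 to 0.24 for Scarna9, -0.055 to 0.53 for Snord47 and -0.30 to 0.046 for Snord32a. The cause of these changes was not tested. Omission of the row with the most reads was not run for Scarna, which has 2 rows. The 3 alternatives without Snora44, without the 4 rows high in wild type replicate 1, and without both were chosen after seeing the data. In knockout replicate 3 the limit that a count of 0 allows was 3.10 CPM, against 0.321 CPM in knockout replicate 1.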
